A study of Mus musculus with 12 samples.

Results

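A list of 10 peptide genes of the gut and its nerves, matched by symbol in a table of 55417 genes, was followed through fetal pancreas cells at E17.5. They are Sst, Sct, Gip, Cck, Gast, Adcyap1, Vip, Nts, Tac1 and Calca. The cells came from Gcg-Timer mouse embryos, which carry a fluorescent reporter tied to the glucagon gene Gcg, and all 12 libraries share that genotype and age. Sorting by colour gave 3 groups of 4 libraries. Group N held cells that the labels call non-alpha, group A held mostly green cells, labelled newly generated alpha cells, and group B held green and red cells, labelled more differentiated alpha cells. Each replicate number stands for embryos of a different mother. The groups are colour gates, so a gate can hold more than one cell type, and N is a mixture of the remaining pancreas cells.

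Peptide hormones are made as long precursors, cut by convertases inside dense granules and released from endocrine cells or nerve endings. Somatostatin comes from islet delta cells and restrains both insulin and glucagon release. Secretin, GIP, cholecystokinin and gastrin are hormones of scattered gut endocrine cells, and gastrin is also known from the fetal islets of rodents. PACAP (from Adcyap1), VIP, neurotensin, substance P (from Tac1) and CGRP (from Calca) are best known as transmitters of nerves, including nerves that supply the pancreas.

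Of these genes, Gast, Sct and Cck separated both alpha cell gates from the other cells, and their starts are printed here because they carry that finding. Sst, the most abundant of them, is printed for contrast. Each line gives the 250 bases before the annotated start of transcription, from RefSeq on GRCm38.p6, on the gene's own strand. The windows are chr16:23890845-23891094 (minus strand) for Sst, chr7:141279134-141279383 (minus) for Sct, chr9:121495695-121495944 (minus) for Cck and chr11:100334157-100334406 (plus) for Gast. Capitals mark TGACGTCA in Sst, the E-box CAGCTG, the GC box GGGCGG and the TATA box letters TATAAA in Sct, CATCTG read on the other strand in Cck and TATAAA read on the other strand in Gast.
Sst: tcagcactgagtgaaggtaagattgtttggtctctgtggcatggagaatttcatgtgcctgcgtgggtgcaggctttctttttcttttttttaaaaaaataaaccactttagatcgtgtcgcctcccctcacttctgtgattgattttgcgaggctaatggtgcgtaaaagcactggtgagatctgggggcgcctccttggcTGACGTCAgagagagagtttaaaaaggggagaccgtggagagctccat
Sct: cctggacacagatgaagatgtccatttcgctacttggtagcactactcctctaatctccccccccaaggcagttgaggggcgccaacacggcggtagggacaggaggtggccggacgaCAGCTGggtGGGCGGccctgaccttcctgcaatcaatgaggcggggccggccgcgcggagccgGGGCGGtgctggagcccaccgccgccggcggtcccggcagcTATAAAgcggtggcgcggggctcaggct
Cck: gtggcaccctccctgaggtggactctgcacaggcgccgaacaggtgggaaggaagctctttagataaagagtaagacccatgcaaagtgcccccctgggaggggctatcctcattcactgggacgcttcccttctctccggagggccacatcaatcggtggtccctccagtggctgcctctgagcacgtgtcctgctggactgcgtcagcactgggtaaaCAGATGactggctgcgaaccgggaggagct
Gast: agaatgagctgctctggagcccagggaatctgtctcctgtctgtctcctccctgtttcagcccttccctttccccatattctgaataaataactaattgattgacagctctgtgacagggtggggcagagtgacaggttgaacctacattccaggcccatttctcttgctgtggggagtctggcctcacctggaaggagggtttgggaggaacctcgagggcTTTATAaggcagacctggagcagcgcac

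Letter matches were sought on both strands in windows that also hold the first 50 bases of each transcript, and all 10 genes had a window. TGACGTCA, the palindromic cAMP response element, lay 48 bases before the start of Sst and in none of the other windows of these genes, against 1.8% of 32544 mouse windows of 300 bases. The shorter TGACG, which is part of the full element, was found in 20.9% of all windows and also in those of Cck, Adcyap1, Vip, Nts, Tac1 and Calca. TATAAA stood 28 bases before the start in both Sct and Gast and is in 13.6% of all windows. It was also found in the windows of Vip and Adcyap1. CAGCTG and GGGCGG, an E-box and a GC box of the kind known from the rat secretin promoter, are in 16.4% and 35.9% of all windows, and CATCTG is in 17.1%. CAGCTG was also in the windows of Gip, Nts and Calca, GGGCGG in that of Tac1, and CATCTG in those of Sct and Tac1. These are matches of letters and not bound sites.

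N libraries held between 32114272 and 38545699 counts, A libraries between 18168640 and 25873608, and B libraries between 16216935 and 24259164. Levels are given as CPM, counts scaled to library size after TMM normalization, with mean ± SD over 4 libraries, and as the deposited TPM where genes are compared with each other, because TPM takes length into account. The gates fitted their labels in part. All 6 alpha markers were higher in A and in B than in N, as were 23.8% and 29.7% of all genes tested. The summed CPM of 8 mesenchymal markers was 11610 to 22640 in N, 2443 to 9919 in A and 389.4 to 1315 in B. The sum of 6 endothelial markers was 189.4 to 393.7 in N, 30.31 to 134.5 in A and 1.028 to 24.46 in B. A therefore carried more RNA of these cell types than B. Of 6 beta cell markers 4 fell and 0 rose in B against A, where 9.12% of all genes tested were lower and 4.63% higher. The sums of these markers were 3511 to 8004 CPM in N, 4886 to 18810 in A and 3910 to 4500 in B. In sorted bulk RNA, fewer cells of a type and less RNA per cell cannot be told apart. Transcripts of gut lining cells were high in A replicate 4 and N replicate 2, where Apoa4 reached 34.6 and 14.9 CPM. It was 2.75 CPM in N replicate 1 and at most 0.108 CPM in the other 9 libraries. The sum over 12 gut epithelial genes was 26.33 to 54.29 CPM in N, 32.02 to 117.8 in A and 48.42 to 86.93 in B. Vil1 alone was at 9.54 to 26.5 CPM in N, 29.4 to 41.2 in A and 36.3 to 64.3 in B. Of the 5 tested, 1 rose and 0 fell in A against N, and 2 rose and 1 fell in B against N. In B against A 0 were called. Of all genes tested, 45.1% were called in A against N, 60.2% in B against N and 13.7% in B against A.

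Sst averaged 306 ± 78.7 TPM in N, 895 ± 481 TPM in A and 493 ± 152 TPM in B. In A the next was Gast at 379 ± 91.3 TPM, then Sct at 48.4 ± 13.1 and Cck at 37.4 ± 10.3 TPM, with Gip at 12.9 ± 12 and Calca at 4.25 ± 2.28 TPM. In B the order was Sst, Gast, Sct, Cck, Gip and Calca as well, with Gast at 247 ± 83.6 TPM and Sct at 137 ± 36.1 TPM. Neighbours in this order overlapped in both groups, except for Gast and Sct in A, and for Sct and Cck and for Cck and Gip in B. In N, Sst stood alone, and Gast, Gip, Cck, Calca, Sct and Vip all had means of 1.4 to 3.16 TPM with overlapping ranges. Adcyap1 was at 0.0565 TPM or less in every group's mean. TPM are not TMM-scaled, so these levels rank genes within a group and do not measure changes between groups.

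**Figure D1:**
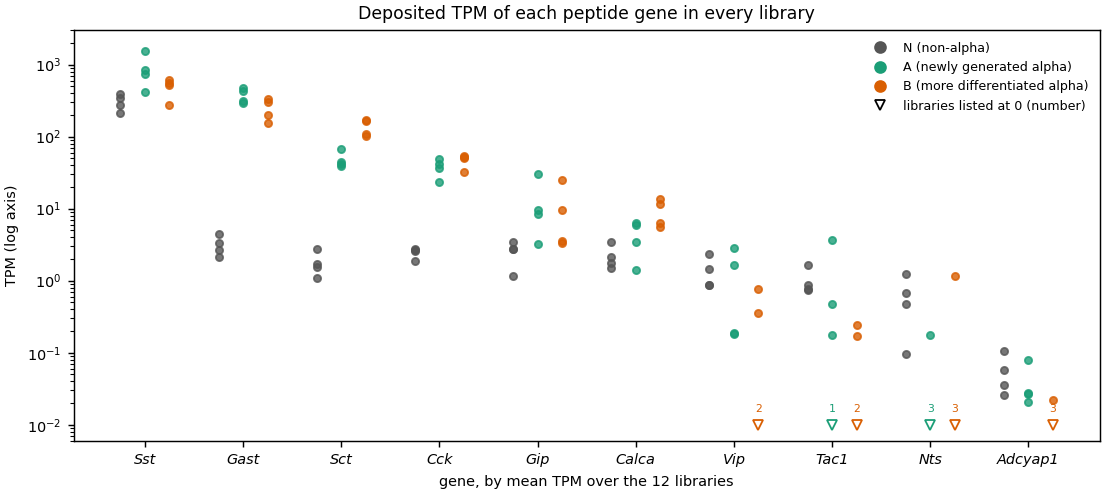
Deposited TPM (log axis) of the 10 peptide genes in each of 12 libraries, coloured by group, with genes ordered by mean TPM. Triangles give the number of libraries listed at 0. Gast, Sct and Cck stand clear of N in both alpha cell gates. TPM are not TMM-scaled, so the size of a change between groups is taken from the fit, at 55.1-fold for Gast in A against N.

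Genes with enough counts were tested in one edgeR quasi-likelihood fit of 17230 genes over all 12 libraries, with Benjamini-Hochberg adjustment at 0.05, and 8 of the 10 peptide genes were among them. In A against N, 3 of these 8 rose, 0 fell and 5 were not called, where 45.1% of all genes tested were called in either direction and 23.8% were higher. In B against N, 3 rose, 2 fell and 3 were not called, where 60.2% of all genes were called, 29.7% higher and 30.5% lower. In B against A, 1 rose, 0 fell and 7 were not called, where 13.7% of all genes were called, 4.63% higher and 9.12% lower. At an unadjusted p under 0.05, 3 of the 8 passed in B against A. The median log2 change of the 8 was 0.91 in A against N, −0.48 in B against A and 0.96 in B against N, and that of all genes tested was −0.02, −0.01 and −0.03. The share of peptide genes called was near that of all genes in each comparison.

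**Figure D2:**
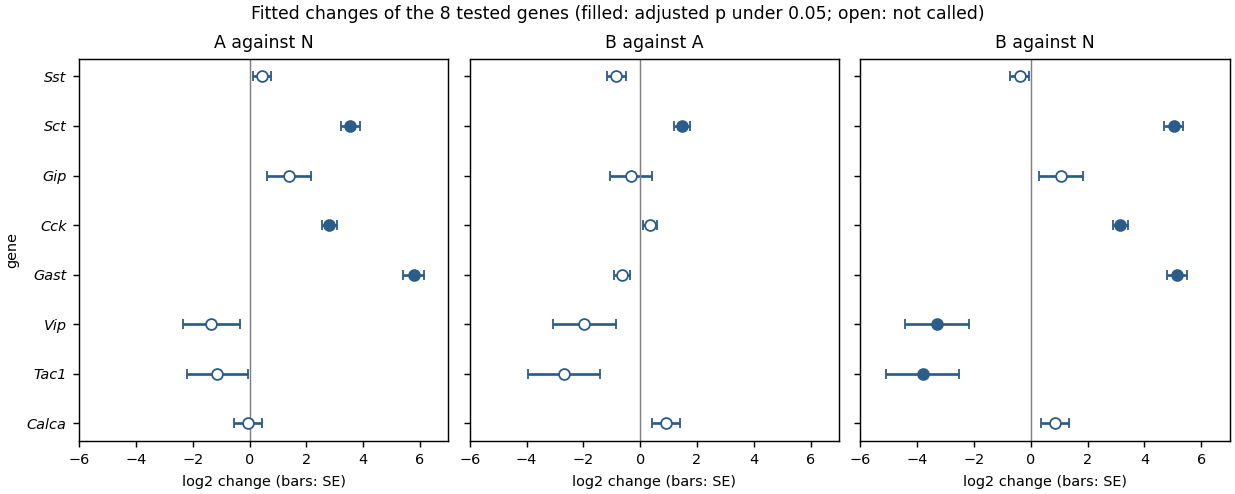
Fitted log2 changes with SE of the 8 tested peptide genes in the 3 comparisons, with filled points for an adjusted p under 0.05. Gast, Sct and Cck are called in both comparisons with N, Vip and Tac1 only in B against N, and Sct alone in B against A.

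Gastrin, which drives acid secretion by the stomach, showed the widest gap to the non-alpha cells. Gast (ENSMUSG00000017165.2, chromosome 11, 100225233 to 100227822, plus strand, in GRCm39) stood at 0.687, 1.07, 1.34 and 0.417 CPM in N replicates 1 to 4. It was at 35, 43, 57.2 and 56.8 CPM in A and at 18.7, 25.5, 40.5 and 38.5 CPM in B. Each library of A and of B was far above each library of N, while A and B overlapped. Such ranges without overlap were found for 43.3% of all genes tested in A against N and for 58.3% in B against N. The fitted log2 change was 5.78 in A against N (SE 0.37, edgeR adjusted p = 6.54e-08), or 55.1-fold, and 5.14 in B against N (SE 0.36, edgeR adjusted p = 9.8e-08), or 35.4-fold. Gast was lower in B than in A in all 4 replicate pairs, by 1.56-fold, but was not called (log2 change −0.64, SE 0.28, edgeR adjusted p = 0.156). No alternative called it, and the adjusted p came nearest to the threshold with the replicate number as a block, at 0.0514. In A, 348 genes had a higher mean TPM than Gast, and in N 10415 did.

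Secretin was the one peptide gene of this set that was called between the alpha cell gates. Its hormone stimulates bicarbonate secretion by pancreatic ducts. Sct (ENSMUSG00000038580.14, chromosome 7, 140858243 to 140859046, minus strand, in GRCm39) had 15, 16, 27 and 11 counts in the N libraries, 132, 142, 158 and 288 in A, and 410, 456, 685 and 462 in B. In CPM these were 0.542, 0.634, 1.03 and 0.353 in N, 6.18, 6.69, 7.01 and 9.92 in A, and 15.2, 17.1, 26.3 and 25 in B. The groups formed 3 steps with no overlap, and within each replicate number the order was N, A, B. Of all genes tested, 18.9% had ranges without overlap in B against A, 43.3% in A against N and 58.3% in B against N. Between A and B the mean went from 7.45 ± 1.68 to 20.9 ± 5.57 CPM (n = 4 each), 2.8-fold higher in B (log2 change 1.49, SE 0.29, edgeR adjusted p = 0.00468). All 22 alternatives called this change, with adjusted p from 7.7e-06 to 0.0187. The log2 change against N was 3.54 for A (SE 0.33, edgeR adjusted p = 2.39e-06) and 5.03 for B (SE 0.34, edgeR adjusted p = 7.82e-08). Gcg, the hormone gene that drives the reporter, stood at 102 ± 30.9, 15389 ± 4430 and 37267 ± 7186 CPM in N, A and B, and its log2 change in B against A was 1.28 (SE 0.26).

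Cholecystokinin contracts the gallbladder and prompts enzyme release from the acini, and shares its active end with gastrin. Cck (ENSMUSG00000032532.8, chromosome 9, 121318890 to 121324760, minus strand, in GRCm39) was at 1.37, 1.27, 1.6 and 1.09 CPM in N. It was at 8.75, 6.55, 10.7 and 11.4 CPM in A and at 12.4, 8.52, 13.7 and 12.9 CPM in B. N lay below both other groups without overlap, and A and B overlapped. Ranges without overlap were found for 43.3% of all genes tested in A against N and for 58.3% in B against N. The log2 change was 2.81 in A against N (SE 0.26, edgeR adjusted p = 1.96e-06) and 3.15 in B against N (SE 0.26, edgeR adjusted p = 4.05e-07). B was higher than A in 4 of 4 replicate pairs, and the difference was not called (log2 change 0.34, SE 0.23, edgeR adjusted p = 0.373).

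**Figure D3:**
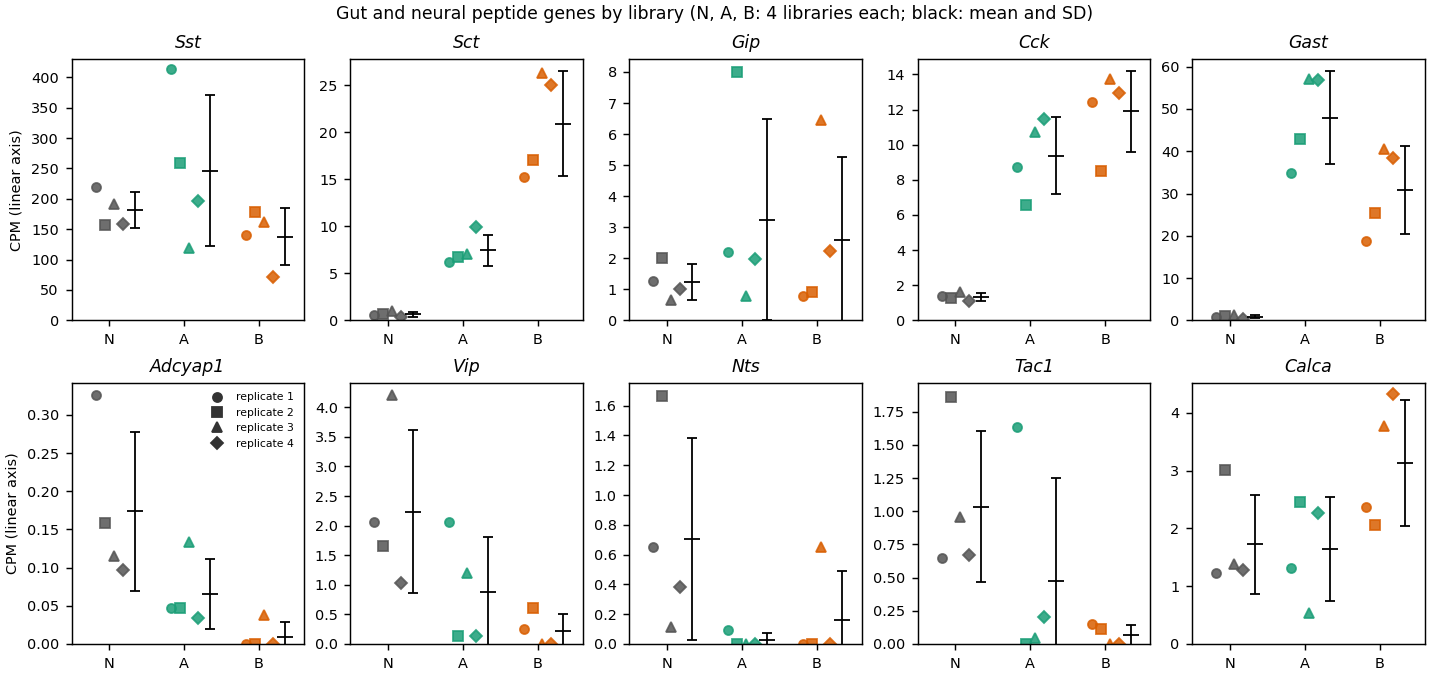
CPM (linear axes from 0, each panel with its own scale) of the 10 peptide genes in N, A and B. Symbols are replicate numbers, and the black marks are the mean and SD of 4 libraries, cut at 0 where the SD exceeds the mean. Sct forms 3 separate steps, while Gip, Nts and Tac1 rest on 1 or a few libraries in the alpha cell gates.

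Between A and B, Sct rose while the change of Gast had the opposite sign and was not called. Their ratio of counts within a library needs no scaling between libraries. Sct counts per Gast count were 0.177, 0.156, 0.123 and 0.175 in A and 0.812, 0.671, 0.65 and 0.65 in B. The ranges were far apart, with means of 0.157 ± 0.0251 and 0.696 ± 0.0782 (n = 4 each). In N, where both genes had at most 35 counts in a library, the ratio was 0.75 ± 0.11. The ratio of Cck to Gast was 0.198 ± 0.0405 in A and 0.418 ± 0.164 in B, and that of Sct to Cck was 0.812 ± 0.167 in A and 1.77 ± 0.367 in B. In the other deposited table Sct and Cck had fewer counts against Gast. There the ratio of Sct to Gast was 0.101 ± 0.00865 in A and 0.466 ± 0.0659 in B, and that of Cck to Gast was 0.121 ± 0.0258 in A and 0.251 ± 0.099 in B. The levels of these ratios thus depend on the table, and in both tables Sct to Gast was higher in B than in A without overlap. These ratios were chosen after the values had been seen and are given with no test.

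**Figure D4:**
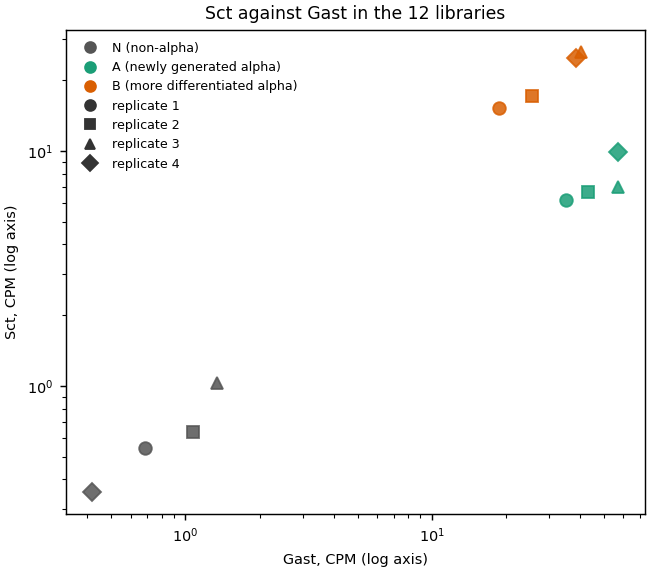
Sct against Gast in CPM (both axes log) in the 12 libraries, with colour for group and symbol for replicate number. Libraries of B lie above those of A at a like or lower Gast level, and within both groups replicates 3 and 4 hold the higher Gast values.

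Within groups, Sct and Gast varied together. Deviations of log2 CPM from the group means correlated at 0.927 over the 12 libraries, which share their preparations in sets of 3. This is the second highest value for Sct among all tested genes, after Ncoa7 at 0.937, and the highest for Gast. Next for Sct came Timd2 at 0.906, Cd160 at 0.903 and Whamm at 0.894, and next for Gast Timd2 at 0.921, Rhbdl1 at 0.908, Celf5 at 0.896 and Rsad2 at 0.882. Several of these have low levels, with Timd2 at 0.461 CPM on average. Cck varied most like Fam43a (0.932), Rnf123 (0.93), Syt13 (0.926), Rbm24 (0.919) and Gnaz (0.91), and its correlation with Sct was 0.643. All these values describe 12 libraries and carry no test.

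Somatostatin RNA was present in every gate and was called in none of the 3 comparisons. Sst (ENSMUSG00000004366.5, chromosome 16, 23708323 to 23709708, minus strand, in GRCm39) was at 220, 157, 191 and 159 CPM in N. It was at 413, 258, 119 and 196 CPM in A and at 140, 178, 162 and 70.7 CPM in B. A had both the highest library, replicate 1, and one of the lowest, replicate 3, and it overlapped both other groups. The log2 change was 0.44 in A against N (SE 0.33, edgeR adjusted p = 0.297), −0.84 in B against A (SE 0.33, edgeR adjusted p = 0.116) and −0.40 in B against N (SE 0.33, edgeR adjusted p = 0.318). B was lower than A in replicates 1, 2 and 4 and higher in replicate 3, and without A replicate 3 the difference was called (log2 change −1.07, edgeR adjusted p = 0.0293). Without A replicate 1 the change was −0.47 in B against A and 0.08 in A against N. The comparisons with N also depend on scaling. With library totals alone Sst was called higher in A than in N (log2 change 1.02, edgeR adjusted p = 0.0173) and the sign in B against N turned to 0.14, in a setting that moved the median change of all genes by 0.57 and 0.54.

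Other genes known from delta cells did not move as one with Sst. Of 10 such genes apart from Sst, 5 rose and 3 fell in A against N, and in B against A 0 rose, 2 fell and 8 were not called, with a median log2 change of −0.27. The shares of all genes tested that were called were 45.1% and 13.7%. Lepr, the leptin receptor, fell from 3.95 ± 1.48 CPM in A to 0.23 ± 0.15 CPM in B and stood at 7.46 ± 1.69 CPM in N. Cd24a, a surface protein shared with duct cells, fell from 91.6 ± 8.79 to 51.2 ± 20.9 CPM and was at 342 ± 49.6 CPM in N. Both genes were highest in N and lowest in B, as were the mesenchymal and endothelial markers. The part of other cell types in these falls was not tested. The call for Cd24a was lost in 5 of 22 alternatives, each without 1 library of A or B, with adjusted p up to 0.0879. Hhex, a transcription factor of delta cells that is also expressed in other pancreatic and endothelial cells, was at 48.8 ± 14.5 CPM in N, 28.4 ± 10 CPM in A and 15.6 ± 3.84 CPM in B. Rbp4, a retinol carrier, was far higher in A at 1756 ± 256 CPM and in B at 1653 ± 144 CPM than in N at 115 ± 15.2 CPM. Ghsr, the ghrelin receptor, was at most 0.702 CPM in any library. Deviations of Sst from its group means were most like those of Gabrp, with a correlation of 0.952, followed by Gm38345 at 0.939, Arl6ip1 at 0.918, Gm379 at 0.916 and Rps23rg1 at 0.913. None of these 5 is a gene of the delta cell list, and Gm38345, Gm379 and Rps23rg1 had mean levels of 1.56, 0.351 and 0.657 CPM.

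The incretin GIP, made by gut K cells, was highest in 2 single libraries. Gip (ENSMUSG00000014351.13, chromosome 11, 95915371 to 95921657, plus strand, in GRCm39) was at 1.27, 2.02, 0.65 and 1.03 CPM in N. It was at 2.2, 8.01, 0.798 and 1.96 CPM in A and at 0.779, 0.9, 6.46 and 2.22 CPM in B. A replicate 2, with 170 counts, and B replicate 3, with 168 counts, stood high, and the other 10 libraries lay between 0.65 and 2.22 CPM. The 2 high libraries come from different mothers. Apoa4 was at 0.0471 CPM in A replicate 2 and 0 in B replicate 3. The sum over 12 gut epithelial genes was 36.6 CPM in A replicate 2 and 61.6 CPM in B replicate 3. The cause of the high Gip values was not tested. In each replicate pair A was above N. No comparison was called, with log2 changes of 1.38 in A against N (SE 0.77, edgeR adjusted p = 0.158), −0.32 in B against A (SE 0.75) and 1.06 in B against N (SE 0.76, edgeR adjusted p = 0.247). Without A replicate 2 the change in A against N was 0.42 and that in B against A turned to 0.64, and without B replicate 3 the change in B against N was 0.06.

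Of the genes best known from nerves, Vip and Tac1 were lower in B than in N. Vip (ENSMUSG00000019772.6, chromosome 10, 5589218 to 5597617, plus strand, in GRCm39) makes a transmitter of parasympathetic nerves that relaxes smooth muscle and stimulates secretion. It was at 2.06, 1.66, 4.2 and 1.03 CPM in N, 2.06, 0.141, 1.2 and 0.138 CPM in A, and 0.26, 0.6, 0 and 0 CPM in B. Every N library was above every B library, and A was split between replicates 1 and 3 within the range of N and replicates 2 and 4 near 0. Ranges without overlap between B and N were found for 58.3% of all genes tested. The log2 change was −3.30 in B against N (SE 1.12, edgeR adjusted p = 0.0205) and was not called without N replicate 3 (−2.81, edgeR adjusted p = 0.0632). It was −1.34 in A against N (SE 1.01, edgeR adjusted p = 0.298) and −1.96 in B against A (SE 1.1, edgeR adjusted p = 0.265), and without A replicate 1 it was −2.18 and −1.12.

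Tac1 (ENSMUSG00000061762.13, chromosome 6, 7554879 to 7565834, plus strand, in GRCm39) encodes the precursor of substance P, a peptide of sensory and enteric nerves. It was at 0.651, 1.86, 0.955 and 0.673 CPM in N, at 1.64, 0, 0.0444 and 0.207 CPM in A and at 0.148, 0.113, 0 and 0 CPM in B. In A, replicate 1 held 35 of the 42 counts, and B had 7 counts in all. The log2 change in B against N was −3.81 (SE 1.27, edgeR adjusted p = 0.0193), and the adjusted p was 0.0525 without N replicate 2. In A against N it was −1.13 (SE 1.08, edgeR adjusted p = 0.411), and without A replicate 1 it was −3.46 and called (edgeR adjusted p = 0.026). In B against A it was −2.68 (SE 1.27, edgeR adjusted p = 0.186), and −0.36 without A replicate 1.

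Genes of peripheral neurons and their glia were measured beside these peptides. Prph, an intermediate filament of peripheral neurons, was at 5.39, 4.47, 9.78 and 3.4 CPM in N, 3.42, 0.33, 7.85 and 0.241 CPM in A, and 1.33, 3.94, 0 and 0 CPM in B. Like Vip, it was high in A replicates 1 and 3, near 0 in A replicates 2 and 4, and at 0 in B replicates 3 and 4. Stmn2, a protein of growing axons, was at 14.5, 24.4, 25.3 and 17.2 CPM in N, 12.3, 7.12, 16.4 and 3.34 CPM in A, and 1.15, 5.82, 0 and 0.379 CPM in B, and fell in B against N (log2 change −3.44, SE 0.89, edgeR adjusted p = 0.0045). Of the whole neuron list 11 of 13 were tested, of which 4 rose and 3 fell in B against N. In that comparison 60.2% of all genes tested were called. Summed CPM of the list was 63.75 to 106.7 in N, 134.7 to 243.7 in A, and in B between 172.3 and 211.2. Nefm alone made up much of the sums of A and B. It was at 7.95 to 12.2 CPM in N, 79.1 to 133 in A and 112 to 150 in B. Nefm, Th and Elavl4 were among the higher members, and each of them was also called higher in A against N. Of 8 Schwann cell markers, 4 were lower in B than in N, and their sum was 58.49 to 88.27 in N, 47.46 to 63.37 in A and 29.48 to 49 in B. The part of nerve RNA in the changes of Vip and Tac1 was not tested.

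**Figure D5:**
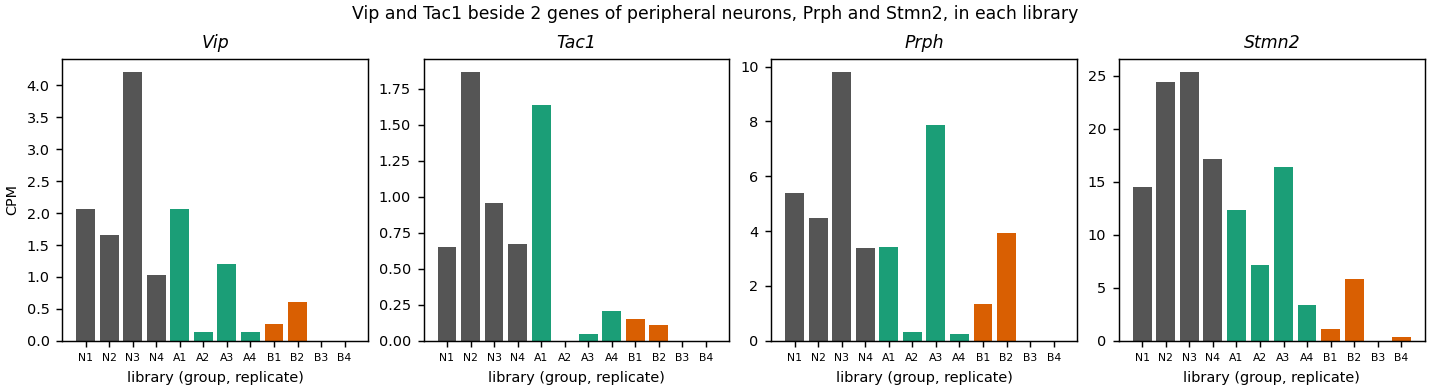
CPM of Vip, Tac1 and the neuronal genes Prph and Stmn2 in each of the 12 libraries (bars from 0, coloured by group). Vip and Prph share high bars in A replicates 1 and 3 and 0 in B replicates 3 and 4, while Tac1 is high in A replicate 1 alone.

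Adcyap1 and Nts were under the filter on low counts and were compared by exact permutation of their CPM. Adcyap1, the gene of PACAP (ENSMUSG00000024256.8, chromosome 17, 93506445 to 93513965, plus strand, in GRCm39), had 9, 4, 3 and 3 counts in N, 1, 1, 3 and 1 in A, and 0, 0, 1 and 0 in B. B was below N in every library (exact two-sided permutation test, n = 4 each, p = 0.0286, the smallest that 70 splits allow, and 0.0857 adjusted over 6 tests). Nts, the neurotensin gene (ENSMUSG00000019890.5, chromosome 10, 102317617 to 102326347, minus strand, in GRCm39), had 18, 42, 3 and 12 counts in N, 2, 0, 0 and 0 in A, and 0, 0, 17 and 0 in B. All the Nts counts of B came from replicate 3, which was also the library of B with the most Gip. The difference was −0.68 CPM in A against N (exact two-sided permutation test, p = 0.0286, adjusted 0.0857) and −0.54 CPM in B against N (exact two-sided permutation test, p = 0.2, adjusted 0.24). Differences between A and B were not detectable at these counts, with exact permutation p of 0.0571 for Adcyap1 and 1 for Nts.

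Calca makes calcitonin in the thyroid and CGRP in sensory nerves from one gene by splicing, and counts per gene do not separate the 2 products. Calca (ENSMUSG00000030669.14, chromosome 7, 114230713 to 114235592, minus strand, in GRCm39) was at 1.23, 3.01, 1.38 and 1.28 CPM in N. It was at 1.31, 2.45, 0.532 and 2.27 CPM in A and at 2.37, 2.06, 3.77 and 4.33 CPM in B. Unlike Vip and Tac1 it was detected in every B library, with 55 to 98 counts each. It was not called, with log2 changes of −0.07 in A against N (SE 0.49, edgeR adjusted p = 0.925), 0.93 in B against A (SE 0.49, edgeR adjusted p = 0.242, higher in 3 of 4 replicate pairs) and 0.86 in B against N (SE 0.49, edgeR adjusted p = 0.147). With library totals alone the last was called (log2 change 1.40, edgeR adjusted p = 0.0225).

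Receptors for these peptides were found changed in both directions. Of 21 receptor genes and their partners 17 were tested, and in B against A 2 were higher, 5 lower and 10 not called. In A against N 6 rose and 5 fell, and in B against N 8 rose and 7 fell. The shares of all genes tested that were called were 45.1% in A against N, 60.2% in B against N and 13.7% in B against A. The median log2 change was 0.45, −0.15 and 0.30 in A against N, B against A and B against N. Sctr, Ntsr1, Ntsr2 and Tacr1, the receptors of secretin, neurotensin and substance P, were under the filter.

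Among somatostatin receptors, 4 of 5 were higher in B than in N, where 29.7% of all genes tested were higher. Sstr2, a main somatostatin receptor of mouse alpha cells, was at 5.13, 3.52, 6.88 and 4.62 CPM in N, 47.2, 23.7, 58.8 and 48.4 CPM in A, and 94.1, 67.7, 82.3 and 78.9 CPM in B. The 3 groups did not overlap. Of all genes tested, this was so for 18.9% between A and B, 43.3% between A and N and 58.3% between B and N. The log2 change in B against A was 0.86 (SE 0.24, edgeR adjusted p = 0.0327). That call was lost in 5 of 22 alternatives, each without 1 library of A or B, with adjusted p up to 0.0924. Sstr3 was at 3.84 ± 1.03, 45.2 ± 10.4 and 62.3 ± 13.8 CPM and Sstr5 at 0.128 ± 0.0897, 3.92 ± 0.995 and 7.16 ± 2.28 CPM in N, A and B, and neither was called between A and B. Sstr4 went the other way, lower in B than in N (log2 change −5.02, SE 1.14, edgeR adjusted p = 0.00189).

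The calcitonin and CGRP receptors split. Calcr, the calcitonin receptor, was at 0, 0.634, 0.344 and 0.192 CPM in N, 0.328, 1.98, 0 and 3.07 CPM in A, and 10.5, 12.3, 15.3 and 19.9 CPM in B. All 4 libraries of B were above the other 8, and 18.9% of all genes tested had ranges without overlap in B against A. The log2 change of Calcr there was 3.41 (SE 0.90, edgeR adjusted p = 0.0239). Without A replicate 1, A replicate 2 or B replicate 4 it was not called, with adjusted p of 0.0659, 0.0523 and 0.0617. Calcrl, the receptor that CGRP and adrenomedullin share, fell from 5.55 ± 3.26 CPM in A to 0.368 ± 0.438 CPM in B, and its partners Ramp2, from 17.8 ± 5.43 to 5.77 ± 1.19 CPM, and Ramp3, from 2.08 ± 0.899 to 0.508 ± 0.258 CPM, fell too. Ramp3 was not called without A replicate 2 (edgeR adjusted p = 0.0531). Calcrl, Ramp2 and Ramp3 are also known from endothelial cells, and they stood highest in N, at 21.8 ± 8.75, 43.1 ± 7.53 and 4.51 ± 1.98 CPM. The endothelial markers were highest in N too, and the part of those cells in these falls was not tested. Ramp1, a further partner of Calcrl, did not share this order. It was at 12.9 ± 3.57, 19.1 ± 4.01 and 15.9 ± 1.6 CPM in N, A and B and was not called between A and B.

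The receptors of PACAP and VIP also split. Adcyap1r1, the receptor selective for PACAP, was at 34.4 ± 11.6, 9.96 ± 5.02 and 1.44 ± 0.583 CPM in N, A and B (B against A log2 change −2.81, SE 0.40, edgeR adjusted p = 0.000996). Vipr2, which binds both peptides, was at 12.1 ± 1.27, 6.66 ± 0.944 and 3.21 ± 1.17 CPM (B against A −1.05, SE 0.27, edgeR adjusted p = 0.0204). It was not called without A replicate 2, without B replicate 1 or when only the groups compared were fitted, with adjusted p of 0.0542, 0.0604 and 0.0561. Vipr1, which also binds both, had the reverse order, at 3.81 ± 0.169, 12.3 ± 6.39 and 23.8 ± 7.95 CPM, and was called against N but not between A and B (log2 change 0.94, SE 0.32, edgeR adjusted p = 0.0687). Gipr, the GIP receptor, was higher than N, at 6.7 ± 3.55 CPM, in both A, at 23.6 ± 1.86, and B, at 21.3 ± 4.78 CPM. Cckar, the receptor through which cholecystokinin acts on rodent acinar cells, was highest in N, at 732 ± 315, 239 ± 73 and 150 ± 72.6 CPM. The sum of acinar markers was 65650 to 123100 in N, 19640 to 33970 in A and 11430 to 28970 CPM in B. The part of acinar RNA in the levels of Cckar was not tested.

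Enzymes that turn such precursors into peptides were followed as a list. Of 13 processing and amidation genes, 8 rose and 1 fell in A against N, and in B against A 1 rose, 1 fell and 11 did not pass the test, with median log2 changes of 0.68 and 0.05. Of all genes tested, 45.1% were called in A against N and 13.7% in B against A. Pam, the amidating enzyme that gastrin, cholecystokinin and secretin need for their active ends, was at 57 ± 34.4 CPM in N, 385 ± 291 CPM in A and 396 ± 277 CPM in B. Its values were 107, 46.4, 28.7 and 45.9 CPM in N, 815, 219, 196 and 310 CPM in A, and 801, 254, 191 and 338 CPM in B. Replicate 1 was thus the highest in every group. Pcsk6, a furin-like convertase, was at 23.7 ± 4.15 CPM in A and rose to 34.7 ± 2.82 CPM in B. Pcsk1, the convertase of the regulated granule pathway, stood at 118 ± 23.5, 356 ± 108 and 97.4 ± 21.5 CPM in N, A and B and had a log2 change of −1.87 in B against A (SE 0.22, edgeR adjusted p = 0.000464).

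Of 25 other precursor genes of gut and nerve peptides, 24 were in the table and 14 were tested. In A against N 8 were higher and 3 lower, and in B against A 2 were higher, 2 lower and 10 not called, with median log2 changes of 1.54 and −0.06. The shares of all genes tested that were called were 45.1% in A against N and 13.7% in B against A. Cartpt, which makes the CART peptide of nerves and islet cells, was at 1.84, 0.594, 2.22 and 0.321 CPM in N, 1.78, 3.11, 3.81 and 4.68 CPM in A, and 13.8, 14.7, 18.4 and 23.1 CPM in B. All B libraries were above all others, and 18.9% of all genes tested had ranges without overlap in B against A. The log2 change of Cartpt there was 2.38 (SE 0.49, edgeR adjusted p = 0.00647). Vgf, a granule protein cut into several peptides, rose from 12.9 ± 2.9 to 37.5 ± 3.7 CPM and was at 1.34 ± 0.577 CPM in N. Penk, the enkephalin precursor, which is also found in mesenchyme, fell from 42.5 ± 20.9 CPM in A to 7.83 ± 4.78 CPM in B and was at 110 ± 45.5 CPM in N. Nucb2, the nesfatin precursor, was at 172 ± 50, 97 ± 13.4 and 53.3 ± 20.8 CPM, and its call in B against A (log2 change −0.86, SE 0.26, edgeR adjusted p = 0.0453) was lost in 11 of 22 alternatives, each without 1 library except for the replicate block (edgeR adjusted p = 0.0598). Among 8 other islet hormone genes, 6 rose in A against N. In B against A 6 fell, and Gcg was the 1 that rose. The 6 were Ins1, Ins2, Ppy, Pyy, Npy and Ghrl. Means in A and B were 311 and 131 CPM for Ppy and 3578 and 2386 CPM for Pyy. They were 64.9 and 8.26 CPM for Npy and 462 and 161 CPM for Ghrl. Iapp, at 3383 and 2952 CPM, was not called. Ins1, Ins2 and Iapp also stand among the beta cell markers given above, and Ppy, Pyy, Npy and Ghrl do not. The part of beta cell RNA in the falls of the islet hormones and of Pcsk1 was not tested. Sct, unlike those 6, was higher in B than in A.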

How the data were processed

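The members and gene lists were chosen with earlier results of these data known. An RNeasy mini plus kit was used for RNA and a SMARTER mRNA-Seq kit for libraries, per the labels' protocols, with no strand setting stated. The submitters' processing notes name STAR 2.5.2b, DRAGEN, GRCm38 (mm10) and GRCm39 (mm39). Which of them apply to which table was not given in these sources. The deposited tables hold, per the file headers, an estimated count and a TPM value for each gene in each library. The table with the reporter sequences added was used, and a second table on mm10 was an alternative. A filtered log-scale copy was not used.

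Estimated counts deposited by the authors were rounded to whole numbers, which moved no library total by more than 0.000286%. Deposited TPM served only to compare levels between genes. CPM are counts over TMM-scaled library sizes. Genes were kept by filterByExpr, 17230 of 55417, and fitted by group over all 12 libraries with edgeR 4.0.16 (glmQLFit and glmQLFTest, common biological coefficient of variation 0.305) in R 4.3.3. P-values were corrected by Benjamini and Hochberg with a threshold of 0.05, and SE was derived from the F statistic. No annotated gene overlaps any of the 10 genes in the annotation used. Members under the filter were compared by exact two-sided permutation. The tests were checked on simulated counts. No pair of libraries within a group agreed within sampling noise. P-values measure the spread between libraries, and sparse genes are limited by counting error.

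The replicate numbers were taken as pairs, because the design text says that each preparation was sorted into the 3 groups and that replicates came from different mothers. The Y-linked genes were alike in the 3 libraries of a number, between 112 and 156 CPM for number 1 and between 0.191 and 0.488 CPM for number 3. Deviations from group means correlated between same-numbered libraries at 0.0467 to 0.233. The replicate block was run as an alternative.

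All 10 genes are named. From each list the text names the genes called in B against A or, where there were none, up to 3 with the smallest p in A against N, and a few more chosen after their values were seen (Sstr3, Sstr4, Sstr5, Gipr, Cckar, Vipr1, Ramp1, Hhex, Rbp4, Ghsr and Pam, and the neuronal genes). For members with a mean of at least 5 CPM the 5 genes with the most similar deviations are named. Alternatives were RLE and upper quartile factors, library totals alone, no filter, at least 10 counts in 8 libraries, the DESeq2 1.42.0 test, only the groups compared, the replicate block, the other table and the omission of each library in turn. Leaving out A replicate 4 and N replicate 2 together, a gut epithelial list and the ratios were added after the data were seen.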

Additional observations from a re-analysis of the deposited data

Results flagged for a closer look

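A group of 4 libraries was set apart here where 1 library stood far from the other 3 by Dixon's ratio. This was so in 9 of 102 groups of 34 genes. Chance gives about 1 in 20 for normally distributed values, a rate that does not hold for sparse counts. With 3 libraries at 0, any count in the remaining library sets the ratio at 1. Tac1 was 1.64 CPM in A replicate 1, and the next library was at 0.207 CPM. Calca was 3.01 CPM in N replicate 2, and the next was at 1.38 CPM. Nts was 0.653 CPM in B replicate 3 and 0.0936 CPM in A replicate 1, each with the other 3 libraries of the group at 0. Adcyap1 was 0.133 CPM in A replicate 3, from 3 counts, with the next at 0.0471 CPM, and 0.0384 CPM in B replicate 3, from 1 count, with the other 3 at 0. Of the other genes named, Hhex was 21.3 CPM in B replicate 2 with the next at 14.4 CPM, Nucb2 was low in N replicate 2 at 97.4 CPM with the next at 191 CPM, and Gcg was 22000 CPM in A replicate 4 with the next at 14000 CPM.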

How the results depend on the processing

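Gast, Sct and Cck kept their direction and their call against N in all 22 alternatives, as did Sct in B against A. The number of peptide genes called in A against N was 3, and 5 with library totals alone, which added Sst and Gip as higher. It was 3 to 5 with 1 library left out, with 5 of 9 tested without A replicate 1, where Tac1 and Nts were lower. In B against A the count was 1, and 1 to 2 with 1 library left out, with Sst added without A replicate 3. In B against N it was 5, was 3 under the filter of 10 counts in 8 libraries, which removed Vip and Tac1, and was 4 to 5 with 1 library left out. Without A replicate 4 and N replicate 2 together Tac1 was not called in B against N (edgeR adjusted p = 0.0593). DESeq2 called 3, 1 and 5 peptide genes in the order above. With the replicate block as a pairing the counts were also 3, 1 and 5, and no call of a peptide gene changed.

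Signs turned as follows, and the cause was not tested. Calca in A against N became 0.49 with library totals alone, 0.020 in the other table, 0.34 without N replicate 2, 0.03 without A replicate 1, 0.23 without A replicate 3 and 0.14 without A replicate 4 and N replicate 2 together, and ranged from −0.32 to 0.34 with 1 library left out. Sst in B against N became 0.14 with library totals alone, and Gip in B against A became 0.64 without A replicate 2, in a range of −1.33 to 0.64 with 1 library left out. Nts in B against A became −0.0234 CPM without B replicate 3, in a range of −0.0234 to 0.194 CPM with 1 library left out.

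Across the table, calls in A against N split into 4099 up and 3664 down, and into 8243 and 1386 with library totals alone. In B against N 5118 up and 5257 down became 8263 and 3407. In B against A 2368 genes were called, 1506 to 2840 with 1 library left out, of which the lowest were 1506 without B replicate 1 and 1523 without A replicate 2. Depth limits Adcyap1, Nts, Tac1 and Vip, which had 1 to 23 counts in all 4 libraries of B together.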

Other observations

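Gip was set beside the rest of the table although its mean lay under the level used for the other genes. Its deviations from the group means over the 12 libraries were most like those of 0610040B10Rik (correlation 0.947), Cyp26b1 (0.931), Xlr3a (0.922), Ptcd3 (0.914) and Pdpn (0.899), and among the peptide genes most like those of Calca (0.751). Vip and Gip deviated in opposite directions (−0.686), as Vip and Calca did (−0.683). These values were chosen after the data were seen, describe 12 libraries and carry no test.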
